A study of Mus musculus with 6 samples.

Results

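The genes described here make and transfer the sugar chain of asparagine-linked glycoproteins. They were listed by name and function, with earlier results of these data known, as the enzymes of the hexosamine pathway, the dolichol carrier, the ALG assembly line and the oligosaccharyltransferase. All 38 listed genes had a probe set that named that gene alone, among 19936 genes measured in the series. Where a gene had several such probe sets, the one with the highest mean over all arrays stood for it.

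Expression was measured on 6 Affymetrix arrays of colon epithelium from male C57BL/6J mice aged 8 weeks, 3 labelled wild type and 3 labelled Sel1L-delta-IEC, called knockout here. In the knockout, exon 6 of Sel1L lay between loxP sites and was deleted by Cre under the villin-1 promoter, which is active in the epithelium of the intestine. The lacZ-neo cassette of the targeted allele had been removed with FLPe deleter mice. The labels do not say whether the wild type mice carried the floxed allele or Cre, nor whether the arrays of a group came from different mice. The p-values therefore rest on array-to-array spread that may be technical.

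N-linked glycosylation starts with the building of a sugar chain on dolichol phosphate, a long isoprenoid lipid in the membrane of the endoplasmic reticulum (ER). The first sugars are added on the cytosolic face from UDP-GlcNAc and GDP-mannose, the chain is flipped, and the rest is added in the lumen from dolichol phosphate mannose and dolichol phosphate glucose. The oligosaccharyltransferase then moves the finished chain onto asparagines of proteins entering the ER, where the glycan is read by the lectin chaperones and by the mannose trimming that marks misfolded proteins for degradation. Sel1L is the adaptor of the Hrd1 ubiquitin ligase in that degradation pathway. Colon epithelium is rich in goblet cells, which secrete heavily glycosylated mucins.

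The values are log2 levels from RMA, a method that subtracts background, puts the arrays on a common scale and combines probes into 1 value per probe set. Array medians lay between 6.32 and 6.36, and 36 of the 38 genes had a mean level above the median of all probe sets, 6.33. Dolk and Alg13 lay below it. Sel1l itself read 9.45, 9.67 and 9.54 on wild type arrays 1 to 3 and 8.70, 9.06 and 8.66 on knockout arrays 1 to 3. The difference was -0.74 ± 0.11 (SE; limma adjusted p = 0.0182), so the transcript fell but stayed well measured. Its exact permutation p was 0.1, the smallest that 3 arrays against 3 can give. The call of Sel1l ended without wild type array 1 or 2 or knockout array 1 or 3, with an adjusted p of up to 0.0875. The probe set was not mapped to exon 6 here. All 12 markers of colon epithelium, Krt8, Krt20, Cdx1, Car1 and Slc26a3 among them, had mean levels above the median of all probe sets, and none was called. At an unadjusted p under 0.05, 1 was higher and 3 were lower, beside 7.72% and 5.62% of all genes. The higher one was Cdx2 (0.28), and the lower ones were Epcam (-0.23), Cdh1 (-0.23) and Slc26a3 (-0.36).

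Over the 38 genes, 2 rose in the knockout and none fell by limma's test with Benjamini-Hochberg adjustment over all genes (adjusted p under 0.05). Over all genes 0.918% were called higher and 0.712% lower. The risen genes were Dpagt1, which starts the chain, and Stt3a, a catalytic subunit of the oligosaccharyltransferase. Changes were small, between -0.10 and 0.55 on the log2 scale, with a median of 0.12 against 0.019 for all genes, and 31 of 38 were positive. At an unadjusted p under 0.05, 14 were higher and none was lower, beside 7.72% of all genes higher and 5.62% lower. In 18 genes each knockout array lay above each wild type array, which was so for 11.4% of all genes, and in 2 (Gfpt1 and Tusc3) each lay below, as in 7.98% of all genes. These counts are descriptions, since the genes were chosen with earlier results of these data known.

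**Figure D1:**
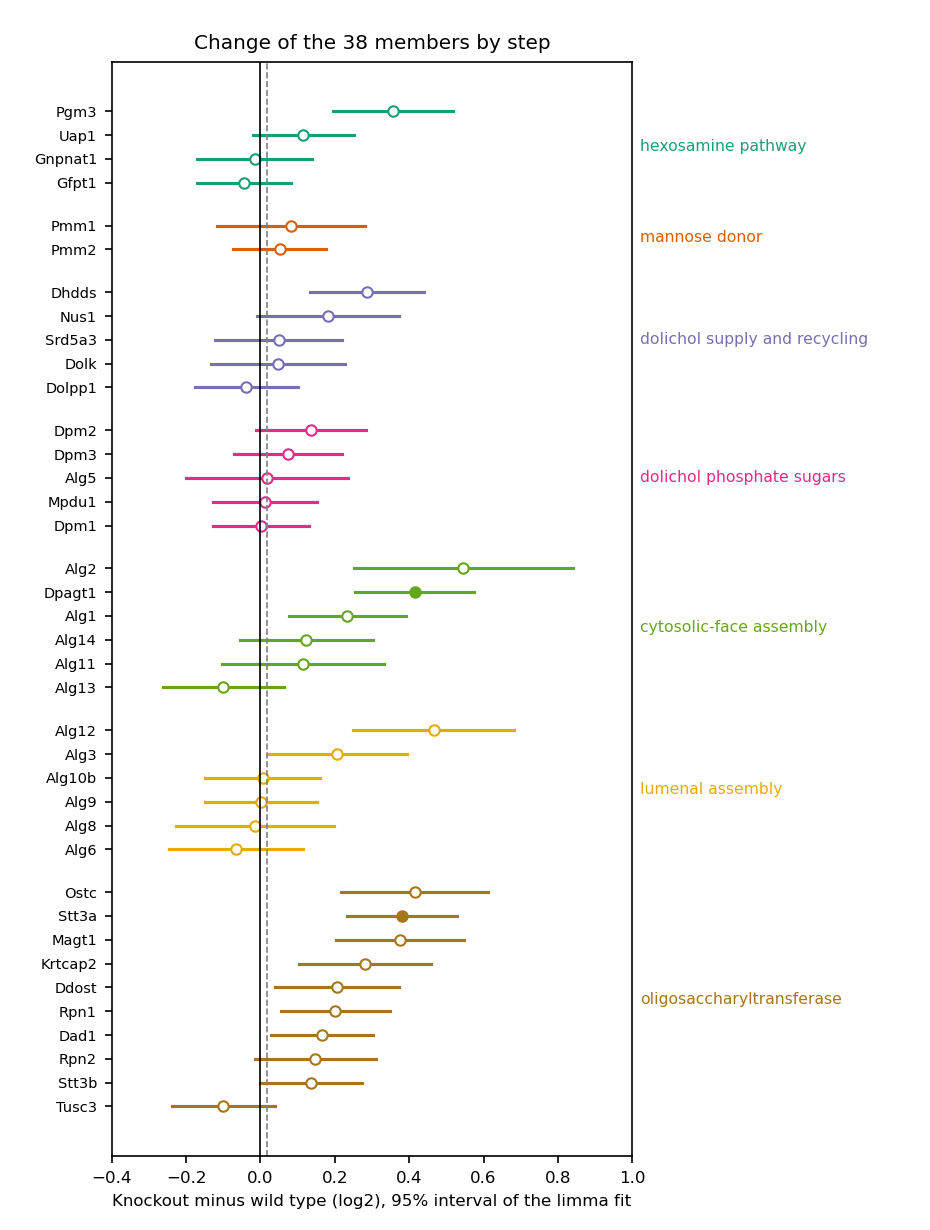
Difference between knockout and wild type for each of the 38 genes, on the log2 scale, with its 95% interval from the limma fit (3 arrays per group). Filled points passed the test (Dpagt1 and Stt3a), the dashed line marks the median of all genes at 0.019, and oligosaccharyltransferase genes other than Tusc3 lie to the right of 0.

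Both calls rested on all 6 arrays: with any array left out, the adjusted p of Dpagt1 was 0.053 to 0.118 and that of Stt3a 0.0504 to 0.121. The differences themselves stayed between 0.37 and 0.46 for Dpagt1 and between 0.35 and 0.41 for Stt3a. Just outside the threshold lay Pgm3 (adjusted p = 0.0505), Magt1 (0.054), Alg12 (0.056), Ostc (0.063), Dhdds (0.089) and Alg2 (0.094). Other ways of fitting all 6 arrays called between 2 and 8 of the 38, always higher, and 1 of those fits called neither Dpagt1 nor Stt3a. Over all genes tested, these fits called 0.587% to 3.25% higher.

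Promoter letters were read for the 32 of 38 genes that have a window in the RefSeq table (GRCm38.p6, 250 bases before to 50 after each annotated start, both strands searched). Dpagt1 and Alg2 were among the genes without a window, so their promoters were not searched. The ER stress response element ERSE, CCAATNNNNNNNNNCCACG, was in 1 of the 32, Alg12, and in 0.137% of all 27025 genes with a window. The related ERSE-II, ATTGGNCCACG, was in 1, Krtcap2, and in 0.0444% of genes. GACGTG, a core bound by XBP1 and ATF6, was in 6 (Gfpt1, Pgm3, Uap1, Dhdds, Dpm2 and Dad1) against 7.15% of genes. CCACG, which is contained in both ERSE forms and can overlap GACGTG, was in 20 against 35.5%, and the amino acid response letters TGATGNAA were in none against 4.51%. Gfpt1, Pgm3, Uap1, Dhdds and Dad1 held both GACGTG and CCACG. In Pgm3 the matches share bases (GACGTG at 24 to 29 from the start, CCACG at 23 to 27). In Gfpt1 a CCACG match overlaps GACGTG too, and another lies apart at -24 to -20. A match is a description of the letters, not of binding. Shown here are the stretches with the complete elements and those of Stt3a, which was called, and of Dhdds, as an example of a window with both short motifs. The matched letters are in capitals (ERSE in Alg12, ERSE-II in Krtcap2, CCACG in Stt3a, CCACG and GACGTG in Dhdds). They lie at chr15:88819490-88819568, chr3:89246482-89246508, chr9:36767694-36767758 and chr4:134000883-134000957, on the minus strand except for Krtcap2. The Alg12, Stt3a and Dhdds stretches are upstream of the start and the Krtcap2 stretch lies just after one of its starts.
Alg12: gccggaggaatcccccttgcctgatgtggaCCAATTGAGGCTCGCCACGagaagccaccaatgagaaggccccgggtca
Krtcap2: ggacacggATTGGACCACGgacggggc
Stt3a: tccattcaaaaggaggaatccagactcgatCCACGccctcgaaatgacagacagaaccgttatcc
Dhdds: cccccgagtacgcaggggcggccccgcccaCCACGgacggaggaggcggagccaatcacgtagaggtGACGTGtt

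The hexosamine pathway makes UDP-GlcNAc. Its rate-limiting enzyme Gfpt1 read 11.55 ± 0.013 in wild type and 11.51 ± 0.028 in the knockout (SD, n = 3 each). That is a difference of -0.044 ± 0.055 with a 95% interval of -0.17 to 0.083, so a rise of the size seen for Pgm3 lies outside it. Gnpnat1, the acetyltransferase, differed by -0.016 ± 0.067, and a second probe set of the gene gave -0.025 ± 0.068. Pgm3, the phosphoacetylglucosamine mutase, read 8.72, 8.78 and 8.92 in wild type arrays 1 to 3 and 9.21, 9.16 and 9.13 in knockout arrays 1 to 3. All its knockout arrays lay above the wild type arrays, and the difference of 0.36 ± 0.070 just missed the threshold. Uap1, which forms UDP-GlcNAc, read 10.61, 10.63 and 10.72 against 10.76, 10.78 and 10.76. Its groups did not overlap either, but the difference was only 0.11 ± 0.059 (adjusted p = 0.46). The 95% interval of Pgm3 was 0.20 to 0.52, above that of Gfpt1, and the difference between these genes was not tested.

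Mannose is supplied through the phosphomannomutases. Pmm1 read 7.10, 6.97 and 6.92 in wild type and 7.18, 7.14 and 6.91 in the knockout, and its groups overlapped. Pmm2, the form mutated in the most common congenital disorder of glycosylation, read 11.28, 11.30 and 11.28 against 11.34, 11.35 and 11.32. The Pmm2 arrays separated by genotype at a difference of 0.052 ± 0.055, which is about the size of its error. Neither passed the test (adjusted p = 0.75 for both).

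Dolichol is made by the cis-prenyltransferase of Dhdds and Nus1, finished by Srd5a3, phosphorylated by Dolk and recycled with the help of Dolpp1. Dhdds read 8.76, 8.74 and 8.81 in wild type and 9.13, 9.08 and 8.96 in the knockout, a difference of 0.29 ± 0.067 without overlap (adjusted p = 0.089). Nus1, its partner subunit, read 10.13, 10.35 and 10.07 against 10.40, 10.40 and 10.29. Wild type array 2 reached into the knockout range, and the difference of 0.18 ± 0.083 was not called (adjusted p = 0.40). Srd5a3, Dolk and Dolpp1 differed by 0.049, 0.047 and -0.038, all with overlapping groups.

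The dolichol phosphate sugars come from the mannose synthase of Dpm1, Dpm2 and Dpm3 and from the glucose transferase Alg5, and Mpdu1 is needed for their use. No gene of this step was called, and the median difference was 0.019, equal to that of all genes. Dpm2 read 8.93, 8.97 and 9.04 against 9.19, 9.05 and 9.11, a difference of 0.14 ± 0.065 (adjusted p = 0.42), with knockout array 2 just above wild type array 3. Dpm3 read 8.13, 8.28 and 8.25 against 8.32, 8.28 and 8.28 and overlapped. The catalytic subunit gene Dpm1 differed by 0.0024 ± 0.056, Alg5 by 0.019 ± 0.095 and Mpdu1 by 0.011 ± 0.061. The signs of these last 3 turned negative when arrays were centred on their medians, at -0.019 for Dpm1, -0.0030 for Alg5 and -0.010 for Mpdu1.

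Assembly on the cytosolic face had a median difference of 0.18. In 3 of its 6 genes every knockout array lay above every wild type array, beside 11.4% of all genes. Dpagt1, the target of tunicamycin, adds the first sugar phosphate to dolichol phosphate. It read 8.99, 9.17 and 9.06 in wild type and 9.51, 9.53 and 9.42 in the knockout (probe set 10584700). The knockout arrays sat close together above all wild type arrays, a rise of 0.41 ± 0.070 or 1.33-fold (adjusted p = 0.027). Alg13 and Alg14 together add the second sugar: Alg13 read 6.37, 6.22 and 6.17 against 6.10, 6.15 and 6.21, and Alg14 read 8.15, 8.32 and 8.32 against 8.51, 8.36 and 8.31. Both overlapped, with differences of -0.10 ± 0.071 and 0.12 ± 0.078. These shrank to -0.042 and 0.067 without wild type array 1, and that of Alg14 to 0.066 without knockout array 1.

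The mannosyltransferases follow. Alg1, which adds the first mannose, differed by 0.23 ± 0.069 without overlap (adjusted p = 0.175). Alg2, which adds the next mannoses, read 7.62, 7.98 and 7.95 in wild type and 8.26, 8.64 and 8.29 in the knockout. Its difference of 0.55 ± 0.13 was the largest of the 38, but its spread was also the widest, with wild type array 1 low and knockout array 2 high. Alg11, which finishes the cytosolic part, differed by 0.11 ± 0.095 and overlapped. That difference rested on knockout array 1, without which it was 0.0071, and it was 0.20 without knockout array 3.

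In the lumen, Alg3, Alg9 and Alg12 add mannose and Alg6, Alg8 and Alg10b add glucose. The median difference of these 6 was 0.0036 and covered unlike members. It lay between -0.037 and 0.053 with single arrays left out, the lowest without knockout array 1 and the highest without knockout array 2. Alg12, the gene with the ERSE letters shown above, read 8.82, 8.94 and 8.72 in wild type and 9.34, 9.42 and 9.11 in the knockout. Every knockout array was higher, by 0.47 ± 0.094 on average (adjusted p = 0.056). Alg3 read 9.68, 9.80 and 9.64 against 10.05, 9.81 and 9.88, and differed by 0.21 ± 0.081 with knockout array 2 close to wild type array 2 (adjusted p = 0.32). Alg9 differed by 0.0007 ± 0.066. The glucosyltransferases Alg6, Alg8 and Alg10b differed by -0.066, -0.014 and 0.0066 and overlapped, with 95% intervals that reached no higher than 0.20. Centring on the array medians turned Alg9 to -0.021 and Alg10b to -0.015.

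**Figure D2:**
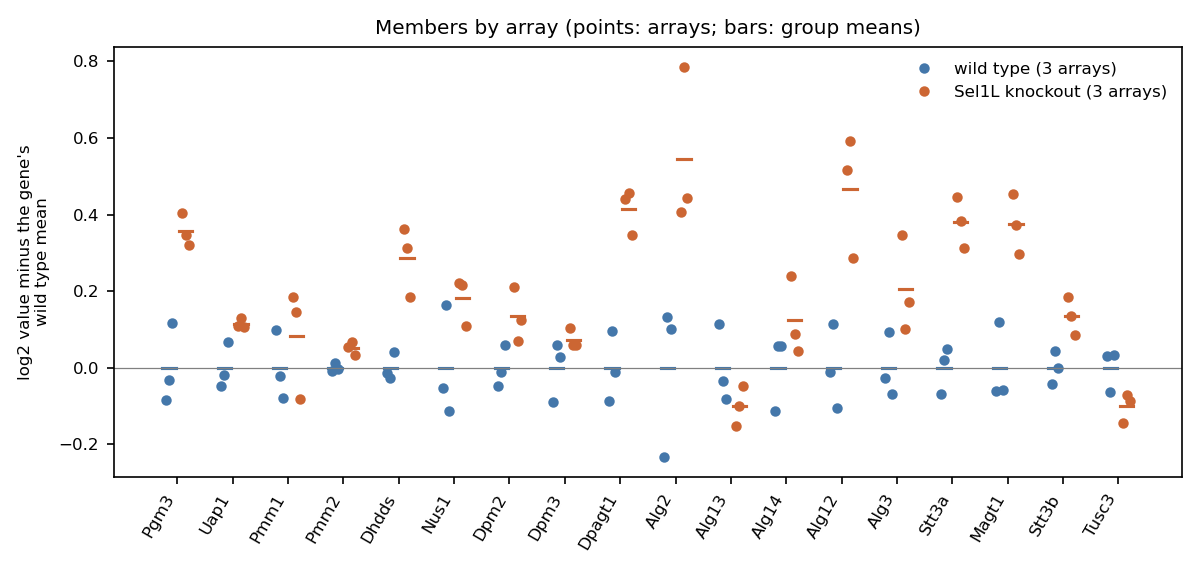
Values of single arrays for 18 of the genes as log2 level minus the wild type mean of the gene (points, 3 arrays per group; bars, group means). Dpagt1, Stt3a, Pgm3, Dhdds, Alg2, Alg12 and Magt1 show knockout arrays above all wild type arrays, whereas Pmm1, Nus1, Dpm3, Alg13 and Alg14 overlap.

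Among the steps, the oligosaccharyltransferase had the largest share of genes with all knockout arrays above all wild type arrays, 8 of 10, beside 11.4% of all genes. The median difference was 0.20, and Tusc3 alone was below 0. The enzyme exists in a form built on Stt3a, which sits at the translocon and acts as proteins enter the ER, and a form built on Stt3b, which acts also afterwards. Stt3a read 11.47, 11.56 and 11.59 in wild type and 11.99, 11.93 and 11.86 in the knockout (probe set 10592217). The lowest knockout array lay well above the highest wild type array, a rise of 0.38 ± 0.065 or 1.30-fold (adjusted p = 0.028). Ostc and Krtcap2, the subunits found in the Stt3a form, differed by 0.41 ± 0.087 (adjusted p = 0.063) and 0.28 ± 0.077 (adjusted p = 0.15), both without overlap.

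Stt3b read 10.82, 10.91 and 10.86 in wild type and 11.05, 11.00 and 10.95 in the knockout. The groups separated narrowly, at a difference of 0.14 ± 0.060 (adjusted p = 0.38). The Stt3b form carries one of the oxidoreductases Magt1 and Tusc3. Magt1 read 9.37, 9.56 and 9.38 against 9.89, 9.81 and 9.73, a difference of 0.38 ± 0.075 without overlap (adjusted p = 0.054). Tusc3 read 7.63, 7.53 and 7.63 against 7.46, 7.53 and 7.51, a difference of -0.10 ± 0.060 (adjusted p = 0.54). Its groups did not overlap, but knockout array 2 lay almost level with wild type array 2.

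Among the 38 genes, the subunits shared by both forms had smaller differences than Stt3a, a contrast that was not tested. Rpn1 and Rpn2, the ribophorins, differed by 0.20 ± 0.064 and 0.15 ± 0.071, Ddost by 0.21 ± 0.073 and Dad1 by 0.16 ± 0.060. None of these was called (adjusted p between 0.211 and 0.425), and only in Rpn2 did the groups overlap. The small subunit genes Ost4 and Tmem258, which were not on the list of 38, read 0.42 ± 0.061 and 0.25 ± 0.090 higher. The difference of Ost4 was thus not smaller than the 0.38 of Stt3a. Ost4 rose (adjusted p = 0.016, but up to 0.0789 when wild type array 1 or 2 or knockout array 1 or 2 was left out), whereas Tmem258 was not called (adjusted p = 0.27).

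Whether paralogs and partners changed unequally was asked within each array, as the log2 value of one gene minus that of the other. The Stt3a minus Stt3b difference was 0.68 ± 0.043 in wild type and 0.92 ± 0.017 in the knockout (SD, n = 3 each), a shift of 0.25 with no overlap. Magt1 minus Tusc3 went from 1.84 ± 0.16 to 2.31 ± 0.11, a shift of 0.48, also with no overlap. Both gave an exact two-sided permutation p of 0.1, the smallest possible here, and 0.25 adjusted over the 5 pairs, so neither can pass in this design. Dhdds minus Nus1 shifted by 0.10 (exact p = 0.5), Alg13 minus Alg14 by -0.22 (exact p = 0.3) and Pmm1 minus Pmm2 by 0.032 (exact p = 0.9), all with overlapping arrays. Without wild type array 2 the shift of Dhdds minus Nus1 was 0.0091, and that of Alg13 minus Alg14 was -0.11 without wild type array 1 and -0.14 without knockout array 1.

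**Figure D3:**
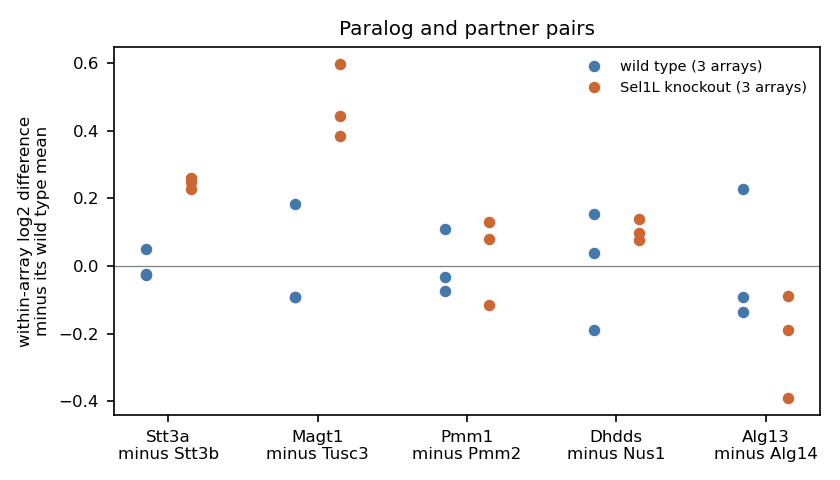
Within-array log2 difference of 5 gene pairs, minus its wild type mean, for each array. The knockout arrays of Stt3a minus Stt3b and of Magt1 minus Tusc3 lie above their wild type arrays, and the other 3 pairs overlap.

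Averaged per array, the steps differed in how cleanly the genotypes separated. The mean deviation from wild type over the oligosaccharyltransferase genes was 0.18 to 0.27 in the knockout arrays against -0.068 to 0.065 in wild type arrays, and over cytosolic assembly 0.16 to 0.25 against -0.035 to 0.025. For the hexosamine and dolichol genes the groups separated by less (0.078 to 0.14 against up to 0.064, and 0.049 to 0.13 against up to 0.037). For the mannose donor, the dolichol phosphate sugars and lumenal assembly they overlapped. The hexosamine mean rested largely on Pgm3, at a difference of 0.36, beside Uap1 at 0.11, Gnpnat1 at -0.016 and Gfpt1 at -0.044. Knockout array 1 had the highest mean over the 38 genes (0.19) and knockout array 3 the lowest (0.090), while the 3 knockout arrays spanned 0.0092 to 0.026 over all genes.

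**Figure D4:**
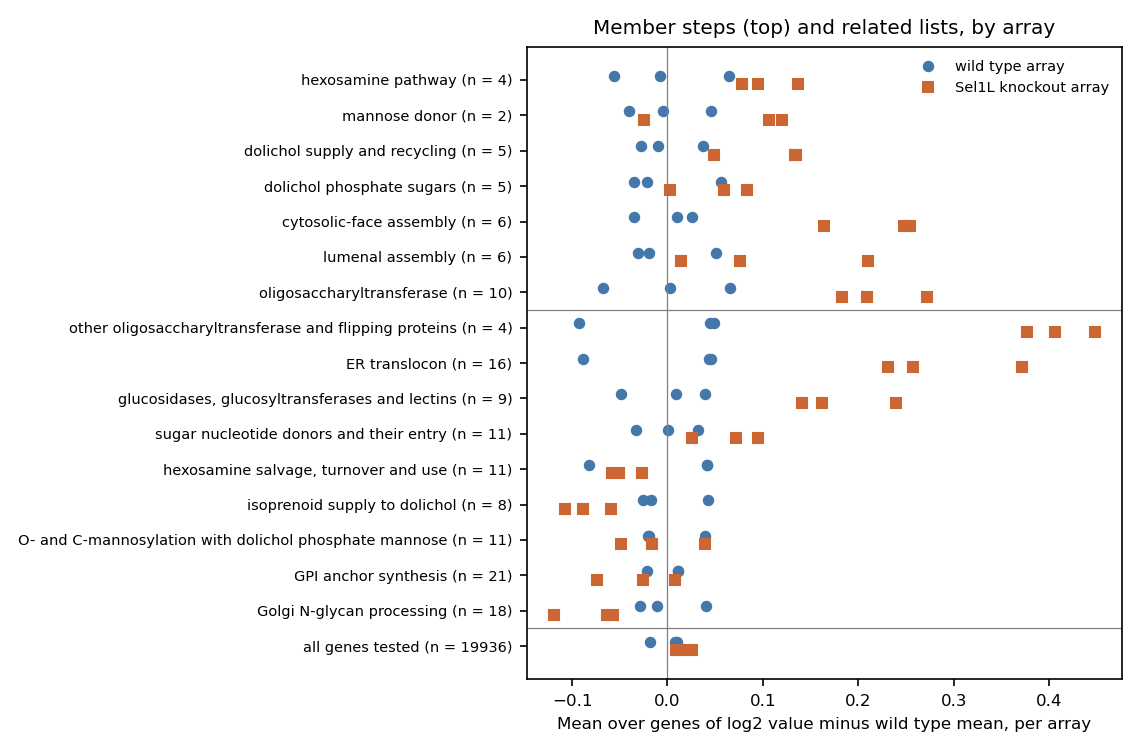
Mean over the genes of each list of the log2 value minus the wild type mean, for each array (circles, wild type; squares, knockout). Oligosaccharyltransferase and cytosolic assembly genes separate the groups, as do the translocon and lectin lists, while lumenal assembly and dolichol phosphate sugars overlap.

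Genes around the pathway differed by branch. Gmppa, the regulatory subunit of GDP-mannose pyrophosphorylase, rose from 10.14, 10.16 and 10.21 to 10.70, 10.64 and 10.60, by 0.48 ± 0.059 (adjusted p = 0.010). Leaving out wild type array 1 or knockout array 1 gave an adjusted p of 0.0509 or 0.053. It was the only gene called of 11 for sugar nucleotides, whose median difference was -0.0185. At an unadjusted p under 0.05, 3 of the 11 were higher and none was lower, beside 7.72% and 5.62% of all genes. Outside those 11, Slc35b1, the ER ATP carrier, rose from 10.30, 10.48 and 10.47 to 11.13, 11.16 and 11.14. That rise of 0.72 ± 0.068 (adjusted p = 0.0055) exceeded every change among the 38 genes and stayed called with each array left out. Slc35b1 was listed with Ost4, Tmem258 and Mlec as other oligosaccharyltransferase and flipping proteins. Of these 4, 2 were called higher (Slc35b1 and Ost4), beside 0.918% of all genes. In all 4 every knockout array lay above every wild type array, beside 11.4% of all genes, and the list median was 0.33.

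Downstream of transfer, 3 of 9 genes of the glucosidase and lectin cycle rose: Uggt1, which reglucosylates misfolded glycoproteins (0.37 ± 0.059), the lectin chaperone Calr (0.39 ± 0.058) and Mcfd2, a cargo receptor subunit (0.40 ± 0.058). Uggt1 was no longer called with any array left out, and Calr and Mcfd2 were called in 1 of these 6 fits each (highest adjusted p 0.105 for Uggt1, 0.0838 for Calr and 0.0746 for Mcfd2). In the ER translocon and signal peptidase 5 of 16 rose, namely Sec61a1, Sec61b, Spcs3, Srpr and Srprb, by 0.40 to 0.50. The list median was 0.25, with a difference above 0 in all 16. In 14 of the 16 every knockout array lay above every wild type array, beside 11.4% of all genes. Over all genes 0.918% were called higher. Leaving out single arrays ended the call of Srpr each time, of Spcs3 in 5, of Sec61a1 in 4, of Srprb in 2 and of Sec61b in 1 of the 6 fits. Centring on array medians also ended that of Spcs3 (adjusted p = 0.0574).

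Lists that share precursors with the pathway had medians near or below 0, and their difference from the 38 genes was not tested. No gene of 11 for hexosamine salvage and use was called (median -0.046), with Oga, the O-GlcNAc hydrolase, at -0.15 ± 0.057 (adjusted p = 0.31). None of 8 isoprenoid synthesis genes was called (median -0.090), with Idi1 at -0.30 ± 0.064 (adjusted p = 0.065). The mean deviation of that list was -0.11 to -0.060 in knockout arrays and -0.026 to 0.042 in wild type arrays, without overlap. Idi1 was called lower with an intensity trend (adjusted p = 0.0149) and without the dimmest 25% or 50% of genes (0.0393 and 0.021). None of 21 genes of the GPI anchor pathway, Dpm2 included, was called (median -0.043). Pigt was at -0.21 ± 0.056 (adjusted p = 0.135, or 0.0221 with an intensity trend). Of 11 genes of O- and C-mannosylation none was called either (median 0.023), with Pomt2 at 0.12 ± 0.059 (adjusted p = 0.42). Unlike the isoprenoid list, both overlapped between the groups in mean deviation. The GPI list lay at -0.074 to 0.0080 in knockout and -0.022 to 0.011 in wild type arrays. The mannosylation list lay at -0.0485 to 0.040 in knockout and -0.020 to 0.039 in wild type arrays. By unadjusted p under 0.05, the hexosamine salvage list had 1 lower, the isoprenoid list 2 lower, the GPI list 2 higher and 2 lower, and the mannosylation list none. Of 18 Golgi processing genes 1 fell, the branching enzyme gene Mgat4a, at -0.61 ± 0.076 (adjusted p = 0.010, but 0.0558 when knockout array 1 was left out). At an unadjusted p under 0.05, 1 Golgi gene was higher and 6 were lower. Every knockout array lay above every wild type array in 3 Golgi genes and below in 7, beside 11.4% and 7.98% of all genes. The mean deviation of the Golgi list was -0.12 to -0.057 in knockout arrays and -0.029 to 0.040 in wild type arrays.

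For scale, the ER chaperone gene Hspa5 rose by 0.85 ± 0.087 (adjusted p = 0.0064) and Syvn1, which encodes Hrd1, by 0.77 ± 0.094 (adjusted p = 0.0099). Xbp1, a transcription factor of the unfolded protein response, differed by 0.25 ± 0.061 (adjusted p = 0.105, or 0.0168 with an intensity trend). The highest of the 38, Alg2 at 0.55, lay below Hspa5 and Syvn1.

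Neighbouring genes were also looked at, after the values had been seen. By RefSeq positions, 23 other protein-coding genes lie within 1000 bases of 19 of the 38 genes, and 21 of the 23 were measured. Of the 21, 2 rose and none fell, beside 0.918% called higher and 0.712% called lower of all genes. Creld2, an ER chaperone gene beside Alg12, rose by 0.99 ± 0.10 (adjusted p = 0.0064), and Sec61b beside Alg2 by 0.50 ± 0.059 (adjusted p = 0.0091). H2ax, beside the called Dpagt1, differed by 0.0049 ± 0.071. Alg2 and Alg12 had the largest differences among the genes named Alg. A link between neighbours was not tested.

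In RNA of bulk colon epithelium, fewer cells of a type and less RNA per cell cannot be told apart. Goblet cells and plasma cells secrete much glycoprotein. None of 8 goblet cell markers was called (1 higher at an unadjusted p under 0.05), and their summed log2 level was 96.0 to 97.8 in wild type arrays and 97.4 to 98.0 in knockout arrays. Of 9 markers of B and plasma cells, Derl3 alone was called, itself an ER stress gene. Only 2 of these 9 lay above the array median (Derl3 and Sdc1, which epithelium also expresses), and the sum over all 9 was 51.6 to 53.6 against 53.9 to 54.8. The other 8 had a median difference of -0.12. The summed levels overlapped between groups for 8 T cell markers (44.6 to 45.5 against 44.2 to 45.8), 10 of macrophages and dendritic cells (55.7 to 56.8 against 55.6 to 56.5), 10 of fibroblasts and smooth muscle (57.6 to 59.4 against 57.8 to 59.2) and 6 of endothelium (29.2 to 30.5 against 29.9 to 30.6). None of these markers was called or had an unadjusted p under 0.05. The part of these cells in the results was not tested.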

How the data were processed

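The series holds 6 arrays, 3 per genotype. Per the submitters' processing notes, the deposited values were made with RMA, and their log2 scale was read from their range (1.72 to 14.07). The sources used here do not give the software, its version or the build. Of 35556 probe sets, 21789 named 1 gene, 1621 several and 12146 none in the platform annotation. Only the first kind was used, with symbols updated through RefSeq gene identifiers, and 1 probe set per gene was kept (19936 genes, no filter on dim ones).

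Genotype was the only term of a limma fit (version 3.58.1, lmFit then eBayes, under R 4.3.3; two-sided, Benjamini-Hochberg over all genes, called at an adjusted p under 0.05). Gene pairs were compared with exact permutation tests in scipy 1.17.1. Errors of differences are the moderated SE. The fitting code was run first on simulated data with known changes.

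The members and lists were chosen with earlier results of these data known. Described with every array were the called members, up to 2 per step with the smallest p, and both genes of each pair. Of each related list the called genes were named, or else the 1 with the smallest p. The neighbour and motif searches, and naming Tmem258, Mlec, Creld2, H2ax, Epcam, Cdh1, Cdx2, Derl3 and Sdc1, came after values were seen. Alternatives tried were an intensity trend, a robust prior, array weights, quantile normalization, a block for the replicate number, centring on array medians, dropping the dimmest 25% or 50% of genes, averaging a gene's probe sets, and omitting each array. For genes outside the list of 38 they were added after seeing the data. Scan date and litter were not used here, and the number of arrays limits the precision.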

Additional observations from a re-analysis of the deposited data

How the results depend on the processing

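The number of the 38 genes called depended on the fit, while no called direction changed. It was 2 under median centring, a robust prior and the mean of probe sets, 5 with array weights, 6 with quantile normalization or without the dimmest 25% of genes, and 8 without the dimmest 50% or with an intensity trend. All of these were higher and each of these sets held Dpagt1 and Stt3a. Over all genes, 598 of 9968 were called without the dimmest 50% and 614 of 19936 with the trend. The main fit called 325 of 19936. The share of tested genes called higher was 0.818% under median centring, 0.903% with the robust prior and 0.918% with the mean of probe sets. It was 1.03% with array weights, 1.04% with quantile normalization and 1.69% without the dimmest 25%. Without the dimmest 50%, where 36 of the 38 were tested, it was 3.25%, and with the trend 1.63%. With an array left out, 0 to 2 of the 38 and 69 to 303 of all genes were called, the members being Pgm3 and Ostc without wild type array 3 and Alg12 without knockout array 3. Sel1l then differed by -0.87 to -0.67. Without the dimmest 50% of genes, which drops Dolk and Alg13, the median was 0.12 for dolichol supply and 0.23 for cytosolic assembly. With 1 array omitted, the median of dolichol phosphate sugars lay between 0.0098 and 0.081. Signs turned under median centring for Dpm1 (-0.019), Alg5 (-0.0030), Mpdu1 (-0.010), Alg9 (-0.021) and Alg10b (-0.015), and under quantile normalization for Dpm1 (-0.0037) and Pmm1 minus Pmm2 (-0.022). Omitting arrays gave -0.017 to 0.10 for Pmm1 minus Pmm2. It also turned the sign of Gnpnat1 (-0.057 to 0.023), Srd5a3 (-0.022 to 0.089), Dolk (-0.034 to 0.099), Dpm1 (-0.013 to 0.016), Alg5 (-0.034 to 0.11), Mpdu1 (-0.026 to 0.045), Alg9 (-0.036 to 0.049), Alg6 (-0.12 to 0.0097), Alg8 (-0.11 to 0.075) and Alg10b (-0.039 to 0.039). Same-numbered arrays of the genotypes correlated at -0.10, 0.15 and 0.15 in their deviations. For numbers 2 and 3 this was the highest correlation with any number. With 3 arrays per group these values cannot decide whether the numbers mark pairs. The labels state no pairing beyond the numbers, so the main fit had no block. With the replicate block 2 of the 38 were called, Alg2 (adjusted p = 0.043) and Alg12 (adjusted p = 0.039), with Dpagt1 at 0.056 and Stt3a at 0.082, and 217 of all genes. The block also ended the calls of Ost4 (0.0537), Calr (0.057), Uggt1 (0.071), Sec61a1 (0.0564), Srpr (0.0915) and Spcs3 (0.107). Outside the 38, calls were gained without the dimmest 50% of genes by Pigt (0.0399) and Xbp1 (0.0331), as with the trend. The cause of these differences was not tested.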
